A study of Rattus norvegicus with 8 samples.

Results

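The genes described here mark neural progenitors and immature neurons in the hippocampus of 8-week-old male Wistar rats. The list held 6 genes, Nes, Sox2, Sox11, Tubb3, Dcx and Eomes. Members were all non-control probes whose RefSeq accession carries one of these symbols, which gave 6 of the 41012 probes on the array and 5 of the 12206 named genes. Nes had 2 probes, Sox2, Sox11, Tubb3 and Dcx had 1 each, and Eomes matched none, so it is not analysed here. The study compared the hippocampus of 4 rats on a standard laboratory feed (control) with that of 4 rats on the same feed containing 0.1% coral calcium hydride (CCH), a coral calcium powder loaded with hydrogen. All rats were 6 weeks old when assigned to a feed, and each gave 1 RNA sample and 1 Agilent 1-colour array. No sample fed plain coral calcium, which the study's design text also names, is among the 8. The free-text sample descriptions speak of a lesion model with drug injections, which contradicts the titles and the stated treatments. Group membership was therefore read from the titles.

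New neurons are made throughout life in the dentate gyrus of the hippocampus, where stem cells in the subgranular zone give rise to dividing progenitors, then to migrating neuroblasts and at last to granule neurons. Nestin and SOX2 mark the stem cell end of this path, EOMES the intermediate progenitors, and SOX11, doublecortin and class III beta-tubulin the newly made neurons. In bulk tissue a gene's signal sums over all cells, so fewer cells of a type and less RNA per cell cannot be told apart. Several of the members are also made outside the niche, nestin in cells of blood vessels and SOX2 in astrocytes and oligodendrocyte precursors, while class III beta-tubulin is present in mature neurons too.

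The promoter sequences of Nes, Tubb3 and Dcx are shown because the levels of this stem cell gene and these genes of young neurons are compared from rat to rat below. Each line gives the 250 bases before the gene's start in RefSeq's GRCr8 build, 5′ to 3′ on the strand of the gene, in lower case with matches to 5 short motifs in capitals. The motifs were the SOX cores AACAAT and ACAAAG, the E-box CANNTG bound by proneural factors, TATAAA and CCAAT, each read on both strands. Nes lies on the plus strand (chr2:175736338-175736587), Tubb3 on the plus strand (chr19:68365437-68365686) and Dcx on the minus strand (chrX:112304162-112304411).
Nes: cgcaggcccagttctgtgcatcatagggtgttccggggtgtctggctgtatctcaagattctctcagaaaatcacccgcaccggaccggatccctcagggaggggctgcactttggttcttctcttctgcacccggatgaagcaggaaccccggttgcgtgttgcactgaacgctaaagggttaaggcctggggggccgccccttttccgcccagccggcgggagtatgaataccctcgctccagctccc
Tubb3: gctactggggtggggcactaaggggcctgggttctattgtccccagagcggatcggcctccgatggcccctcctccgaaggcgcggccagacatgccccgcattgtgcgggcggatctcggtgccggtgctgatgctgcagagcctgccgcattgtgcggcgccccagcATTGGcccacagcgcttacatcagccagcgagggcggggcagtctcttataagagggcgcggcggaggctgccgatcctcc
Dcx: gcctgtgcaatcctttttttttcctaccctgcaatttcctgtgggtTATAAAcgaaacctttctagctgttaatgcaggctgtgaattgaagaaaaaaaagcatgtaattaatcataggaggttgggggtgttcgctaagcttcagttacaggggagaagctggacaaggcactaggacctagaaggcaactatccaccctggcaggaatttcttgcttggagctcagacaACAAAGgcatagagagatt

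The Dcx window held ACAAAG 19 to 14 bases before the start and TATAAA 204 to 199 bases before it. Of 33469 rat promoters of the same length 24.5% held either SOX core and 12.9% held TATAAA. The Tubb3 window held a CCAAT motif, read as ATTGG, 81 to 77 bases before the start, as did 34.0% of all promoters somewhere in the window. No letters of the 5 motifs were found in the Nes window. The Dcx window had a GC content of 44.0%, against 60.4% for Nes, 68.0% for Tubb3 and a median of 51.2% over all promoters. These matches describe letters and not binding.

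Levels are given as the log2 of the processed signal minus the log2 of the same array's 75th percentile signal, with rats numbered by their replicate label, so a level of 0 means a spot as bright as that percentile. The 75th percentile was 563 to 700 for controls and 642 to 882 for CCH (exact permutation p = 0.0857, two-sided, n = 4 per group), and 76.3% to 79.9% of spots were well above background. The median local background averaged 33.3 ± 0.96 (SD) for controls against 34.9 ± 0.25 (SD) for CCH, and the groups did not overlap (exact permutation p = 0.0286, the smallest possible, two-sided, n = 4 per group). Its part in the values of dim probes such as Sox11 was not tested beyond the change of background correction given with them. All controls were on slide 1 and all CCH samples on slide 2, scanned separately, so an effect of the feed and one of the slide cannot be told apart. CCH replicate 1 stood apart, with an array weight of 0.18 against 0.83 to 1.81 for the others. Without it, 733 probes in place of 55 were called over the whole array. Of 12 listed markers of mature dentate granule neurons 6 had a probe and 4 were tested, a test that itself required signal well above background on at least 4 arrays. These 4, among them Prox1 and Calb1, were well above background on all 8 arrays.

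None of the 6 probes differed between the diets past the threshold, a Benjamini-Hochberg adjusted p under 0.05 in limma's fit of the whole array. Over the array 55 of 31612 tested probes were called, a share of 0.174% (0.0759% higher and 0.0981% lower in CCH). At an unadjusted p under 0.05 both Nes probes stood lower in CCH, against 15.4% of all tested probes in either direction and 6.59% in the lower one, with 8.79% in the higher one. Sox2, Sox11, Tubb3 and Dcx had differences above 0, all within the spread between rats. No array left out in turn and no other processing brought any of the 6 probes past the threshold. All 6 probes were well above background on all 8 arrays, no spot was marked as an outlier, and precision is limited by having 4 arrays per group.

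Nes encodes nestin, the intermediate filament protein of neural stem and progenitor cells. Its brighter probe, A_44_P1020422, was at a log2 level of 0.68, -0.07, 0.65 and -0.09 in control rats 1 to 4 and at -0.32, -0.11, -0.13 and -0.23 in CCH rats 1 to 4. Control replicates 1 and 3 were high, while control replicates 2 and 4 lay only just above the CCH arrays. The groups did not overlap, but the lowest control lay only 0.026 above the highest CCH array. Of all tested probes 11.3% had groups that did not overlap, and 4.69% had all CCH arrays below all controls. Controls averaged 0.29 ± 0.43 (SD, n = 4), and CCH arrays averaged -0.20 ± 0.098 (SD, n = 4). Their difference of -0.49 ± 0.20 (SE) had a 95% interval of -0.94 to -0.03 and a limma adjusted p of 0.292.

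The dimmer Nes probe, A_44_P1020428, was at -1.13, -1.73, -1.24 and -1.94 in control rats 1 to 4 and at -2.47, -1.90, -1.88 and -2.09 in CCH rats 1 to 4. The same pair of controls, replicates 1 and 3, was high, and control replicate 4 fell among the CCH arrays, so here the groups overlapped. The difference was -0.58 ± 0.21 (SE, limma adjusted p = 0.248), with a 95% interval of -1.06 to -0.09. Within an array the dimmer probe stood below the brighter one by a log2 of 1.80 on average in the controls and 1.89 in CCH. That gap did not differ beyond the spread between rats (difference -0.09, two-sided exact permutation p = 0.514, n = 4 per group), so both probes gave the same size of difference within error. Leaving out 1 array at a time moved the brighter probe between -0.61 and -0.36 and the dimmer one between -0.72 and -0.45, with the smallest difference at -0.36 without control replicate 1 for the brighter probe. For the dimmer probe it was -0.45 both without control replicate 1 and without CCH replicate 1.

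**Figure D1:**
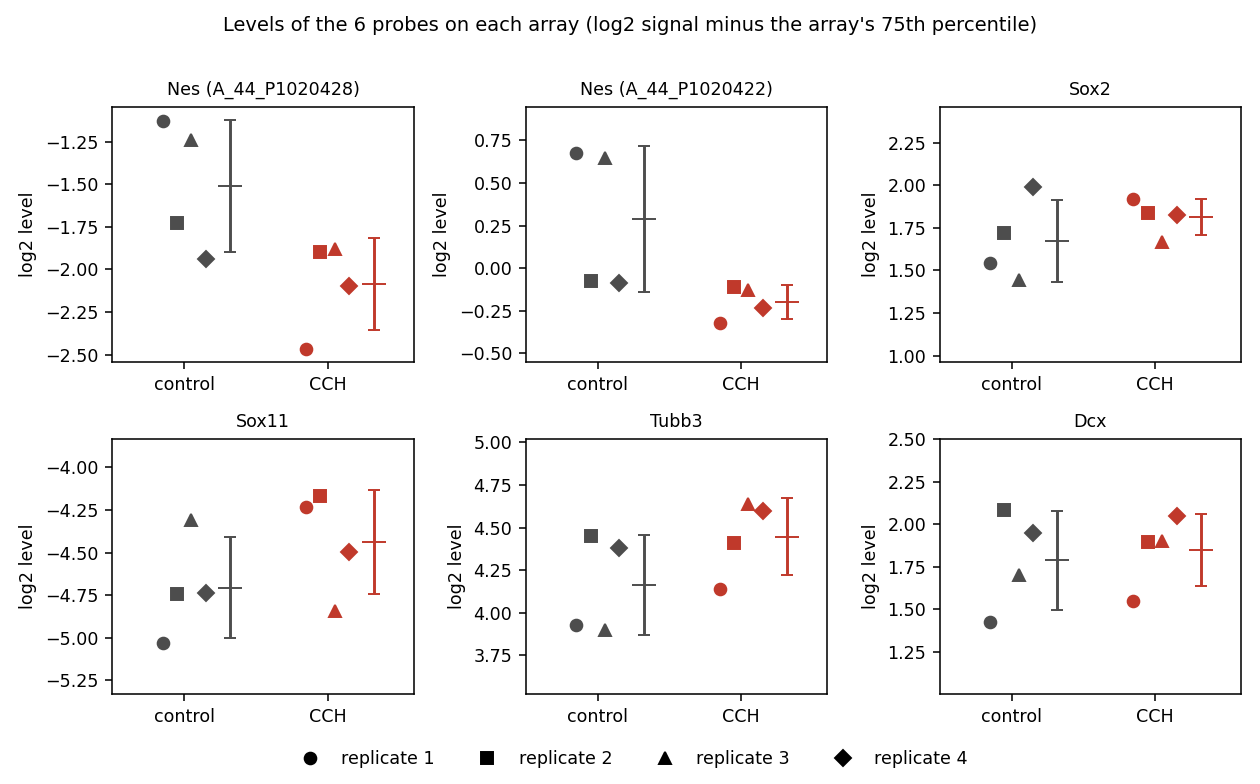
Log2 level of each of the 6 probes (vertical axis, log2 signal minus the array's 75th percentile, 1.5 log2 units high in every panel) in control (grey) and CCH (red) rats, with marker shapes for replicates and bars for the mean ± SD of 4 arrays. Control replicates 1 and 3 stand above the other 6 arrays on both Nes probes. The groups overlap in every panel except that of the brighter Nes probe.

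Markers of other cells moved with Nes among the controls. Over 13 tested markers of meninges and fibroblasts, all well above background on all 8 arrays, the mean level relative to the 8-array mean was 1.87, -1.69, 1.32 and -1.17 in control rats 1 to 4. It was 0.16, 0.35, 0.16 and -1.01 in CCH rats 1 to 4. The controls with high Nes were thus those with high meningeal markers, while the CCH arrays with middling meningeal levels had low Nes. Of the 13 markers 4 were higher and 9 lower in CCH, with a median difference of -0.24 and 0 called.

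Vascular markers, of interest because nestin is made in vessel walls, were spread less. Over 14 tested endothelial and pericyte markers, all well above background on all 8 arrays, the mean level lay between -0.70 and 0.46 for control rats and between -0.27 and 0.29 for CCH rats. The mean was highest on control replicate 1 (0.46), CCH replicate 1 (0.29) and control replicate 3 (0.28). Its lowest value, on control replicate 4, was pulled down by Kcnj8, at -4.44 there and between 0.18 and 0.80 on the other arrays. Of these markers 7 were higher and 7 lower in CCH, with a median difference of 0.00 and 0 called. Vim, the intermediate filament vimentin of stem cells, astrocytes and mesenchymal cells, stood at 3.67, 1.33, 3.00 and 1.40 in control rats 1 to 4, against 1.52 to 2.53 for CCH. Vim thus had the same pair of high controls as Nes, and its difference of -0.28 ± 0.54 (SE, limma adjusted p = 0.850) was smaller than its error and went to 0.16 without control replicate 1. Choroid plexus and ependyma markers, 13 tested, were also highest on control replicates 1 (1.97) and 3 (1.69), with control replicates 2 and 4 at -0.63 and 1.16. CCH rats 1 to 4 had mean levels of 1.15, -3.34, 1.51 and -3.51 for these markers. All 13 were lower in CCH, with a median difference of -2.17 and 0 called, and 9 of the 13 were well above background on all 8 arrays. The part of meningeal, vascular and choroid plexus cells in the Nes values was not tested.

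**Figure D2:**
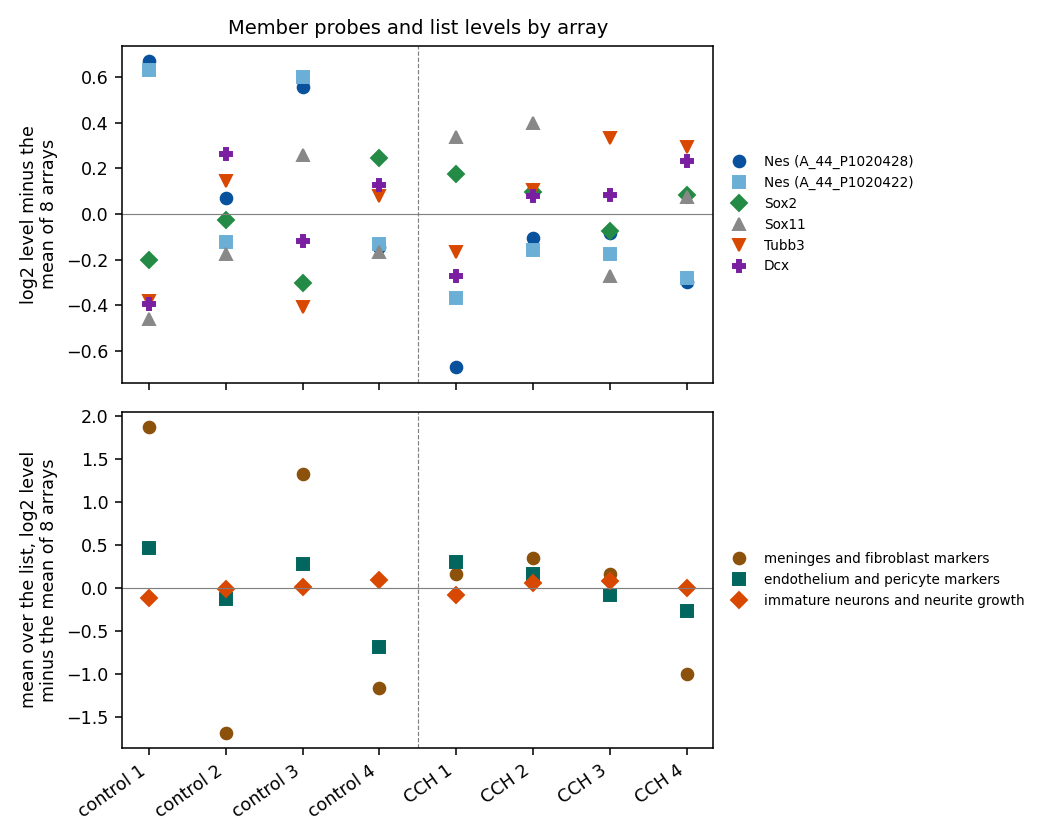
Upper panel, log2 level of each member probe minus its mean over 8 arrays; lower panel, mean over a list of genes on the same scale, for meningeal, vascular and immature neuron lists, with the arrays along the horizontal axis and a dashed line between control and CCH. Control replicates 1 and 3 are highest both on the Nes probes and in the meningeal markers (1.87 and 1.32), while the immature neuron list stays between -0.12 and 0.08.

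Sox2 encodes a high-mobility-group transcription factor that keeps neural stem cells undifferentiated. It was at 1.54, 1.72, 1.44 and 1.99 in control rats 1 to 4 and at 1.92, 1.84, 1.67 and 1.83 in CCH rats 1 to 4. The CCH arrays lay inside the range of the controls. The difference was 0.14 ± 0.13 (SE, limma adjusted p = 0.667), with a 95% interval of -0.16 to 0.44, and moved between 0.06 and 0.25 with 1 array left out. Oligodendrocyte precursors also make SOX2, and their markers were higher in CCH for 7 of 8 tested, with a median of 0.27 and 0 called. For 5 of them, Olig1, Sox10, Neu4, Matn4 and Bmp4, all CCH arrays lay above all controls, against 6.59% of all tested probes. Pdgfra was the 1 lower gene, at -0.16 ± 0.16 (SE), and Cspg4 was at 0.07 ± 0.11 (SE). These genes were named after their values were seen. Astrocyte markers were higher for 5 of 12 and lower for 7, with a median of -0.03. The part of these cells in the Sox2 level was not tested.

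Sox11 encodes a transcription factor of the SOXC group that switches on neuronal genes in newly made neurons. Its probe was dim, with a median spot signal of 58.5 to 87.0 over a local background of 33.5 to 38.0, and a processed signal of 21.0 to 46.9. It was at -5.03, -4.74, -4.31 and -4.74 in control rats 1 to 4 and at -4.23, -4.17, -4.84 and -4.50 in CCH rats 1 to 4. The groups overlapped, with the lowest level on control replicate 1 and the next lowest on CCH replicate 3. The difference was 0.27 ± 0.19 (SE, limma adjusted p = 0.561), with a 95% interval of -0.17 to 0.71. Its direction turned to -0.044 with normexp background correction, so no direction can be given for Sox11. With 1 array left out it lay between 0.16 (without control replicate 1) and 0.40 (without CCH replicate 3).

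Tubb3 encodes class III beta-tubulin, a subunit of neuronal microtubules that appears as neurons form and persists in mature ones. It was the brightest of the member probes in processed signal, at 8897 to 16369. Its level was 3.93, 4.45, 3.90 and 4.38 in control rats 1 to 4 and 4.14, 4.41, 4.64 and 4.60 in CCH rats 1 to 4. Control replicates 1 and 3 were the lowest arrays, and CCH replicate 1 came next. The difference was 0.28 ± 0.17 (SE, limma adjusted p = 0.484), with a 95% interval of -0.11 to 0.68, and lay between 0.19 and 0.39 with 1 array left out.

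Dcx encodes doublecortin, a microtubule-binding protein of migrating neuroblasts and the usual marker of young neurons in the adult dentate gyrus. It was at 1.42, 2.08, 1.70 and 1.95 in control rats 1 to 4 and at 1.55, 1.90, 1.90 and 2.05 in CCH rats 1 to 4. Replicate 1 was lowest in each group, and the other arrays of both groups intermingled. The difference was 0.06 ± 0.17 (SE, limma adjusted p = 0.900). Its 95% interval of -0.32 to 0.44 corresponds to a CCH level between 0.80 and 1.36 times the control level, so changes within that range cannot be told from none with 4 rats per group. The sign of the difference turned without control replicate 1 (-0.060) or CCH replicate 4 (-0.0060).

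**Figure D3:**
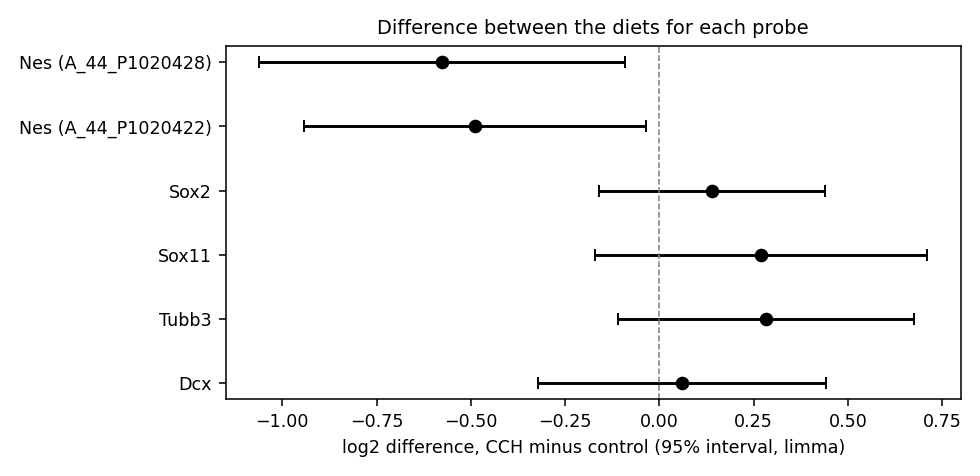
Log2 difference between CCH and control for each probe (points) with the 95% interval from limma (bars); the dashed line marks 0. Only the intervals of the Nes probes, -0.94 to -0.03 and -1.06 to -0.09, leave out 0, and neither has an adjusted p under 0.05.

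How the members varied together was examined over the 8 rats in all 15 pairs of probes, with exact two-sided permutation p-values adjusted over the 15. The 2 Nes probes followed each other, with Pearson's r of 0.95 (exact p = 1.98e-04, adjusted 0.00298) and Spearman's rho of 0.90 (exact p = 0.00456, adjusted 0.0685). Without control replicates 1 and 3, the arrays farthest from the median, r was 0.95. Tubb3 and Dcx had r of 0.83 (exact p = 0.0154, adjusted 0.0577) and rho of 0.71 (exact p = 0.0576, adjusted 0.288), and r of 0.76 without control replicates 1 and 3. With each group's own mean taken off, which removes slide and diet together, r was 0.90 for Tubb3 with Dcx and 0.90 for the Nes probes. A slide holds only 4 rats, too few for a correlation of its own.

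Nes and Sox2, both genes of the stem cell end, had r below 0 over the 8 rats, with no adjusted p under 0.05. The brighter Nes probe and Sox2 had r of -0.84 (exact p = 0.0116, adjusted 0.0577) and rho of -0.60 (exact p = 0.132, adjusted 0.492), and r was -0.29 without control replicates 1 and 3. Much of r for the brighter probe thus rested on those arrays. The dimmer Nes probe and Sox2 had r of -0.85 (exact p = 0.00888, adjusted 0.0577) and -0.52 without them, and rho of -0.83 (exact p = 0.0154, adjusted 0.115). With each group's own mean taken off, r with Sox2 was -0.84 for the brighter and -0.87 for the dimmer probe. For the brighter Nes probe and Tubb3, r was -0.78 (exact p = 0.0305, adjusted 0.0914) over 8 rats and 0.45 without those 2 controls, so its sign also hung on them. The brighter Nes probe and Dcx had r of -0.56 (exact p = 0.125, adjusted 0.301) over 8 rats and 0.70 without those controls. The dimmer Nes probe went from -0.32 to 0.83 with Dcx and from -0.57 to 0.63 with Tubb3 when they were left out. Over the remaining 6 rats r of Nes with both genes of young neurons was thus above 0. Of these 6, CCH replicate 1 was the lowest on both Nes probes (-0.32 and -2.47), on Tubb3 (4.14) and on Dcx (1.55). Whether the direction holds without that array, which had the lowest array weight, was not tested, and no p was computed over the 6. In the other 10 pairs, those of Nes with Dcx included, the exact p of r was at least 0.125.

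The genes most alike in pattern were sought among 9598 named genes by the mean absolute gap over the 8 arrays after each probe was centred and scaled to unit SD. For Nes these were Pde5a, a cyclic GMP phosphodiesterase, at a gap of 0.10 SD and Slc16a4, a monocarboxylate transporter family member, at 0.14 SD, where the median gene was at 1.15 SD. For Sox2 they were Pnck and Abcd2 (0.22 SD each), and for Sox11 Smndc1 (0.18 SD) and Lasp1 (0.22 SD). For Tubb3 they were Gpc1, the heparan sulphate proteoglycan glypican 1 (0.13 SD), and Apba2 (0.19 SD), and for Dcx Matk (0.14 SD) and Ppp2r5e (0.15 SD). With 8 arrays and so many genes, some close matches arise for any probe. None of these genes was called between the diets, and Pde5a was at -0.49 with a limma adjusted p of 0.314. The genes were chosen for their likeness to uncalled probes over the same arrays. Their lack of a call and their direction therefore follow from the choice and are no separate result.

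The wider neurogenic lineage was described with 5 lists, 1 probe per gene, in which 85 genes were tested and 0 were called higher or lower by limma. This 0 did not hold under every alternative: with array weights 1 gene of dividing progenitors and 3 niche genes were called, and with normexp background correction or trend and robust settings 1 niche gene was. The median difference over all 31612 tested probes was 0.03, with 55.1% of probes higher and 44.9% lower. At an unadjusted p under 0.05, 8.79% of all tested probes were higher and 6.59% lower. Of 18 tested genes of radial glia-like stem cells 9 were higher and 9 lower, with a median of 0.02. Of these, 2 were higher at an unadjusted p under 0.05, Gfap and the transcription factor gene Tfap2c, and 1 was lower, Nr2e1. The list shares Gfap, Slc1a3 and Aldoc with the astrocyte list, so it does not describe stem cells alone. Gfap, the filament protein of astrocytes and stem cells, averaged 0.47 ± 0.20 (SD, n = 4) on control arrays against 0.84 ± 0.19 (SD, n = 4) on CCH arrays, a difference of 0.37 ± 0.14 (SE, limma adjusted p = 0.245). Tfap2c, named after its values were seen, differed by 1.26 ± 0.43 (SE, limma adjusted p = 0.215) on a dim probe at -4.98 in the controls. With normexp background correction it was at 0.27 (limma adjusted p = 0.348). Nr2e1, the stem cell receptor TLX, differed by -0.31 ± 0.13 (SE, limma adjusted p = 0.302), also on a dim probe, at -5.04 in the controls. It was at -0.23 with normexp, and its unadjusted limma p was 0.0907 with trend and robust settings. The Notch receptor gene Notch1 was at -0.50 ± 0.31 (SE) and its targets Hes1 and Hes5 at -0.14 ± 0.14 and 0.10 ± 0.21 (SE), Hes5 at -0.054 without control replicate 1. Notch1, with a limma adjusted p of 0.502, was at -0.24 without CCH replicate 3. With normexp it was at -0.30 with a smaller error (SE 0.094, limma adjusted p = 0.145). Hes1 lay between -0.26 and -0.074 with 1 array left out and at -0.050 with array weights. Fabp7, a fatty acid binding protein of radial glia, was at 0.27 ± 0.12 (SE), Hopx at 0.19 ± 0.14 (SE) and Pax6 at 0.04 ± 0.12 (SE). Hopx was at 0.071 without control replicate 2, and Pax6 was at -0.030 with array weights.

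Of 15 tested genes of dividing and intermediate progenitors 8 were higher and 7 lower, with a median of 0.07. Only Rrm2, a subunit of ribonucleotide reductase that supplies building blocks for DNA, reached an unadjusted p under 0.05. It was named after its values were seen. Rrm2 was between -5.61 and -5.23 on the control arrays and between -6.21 and -5.83 on the CCH arrays. All CCH arrays thus lay below all controls, as for 4.69% of all tested probes. Its difference was -0.64 ± 0.12 (SE, limma adjusted p = 0.0710). Its other probe was at -0.41 ± 0.23 (SE). Both probes were dim, and with normexp background correction each was at -0.24. Pcna, the clamp of DNA replication, was at -0.07 ± 0.10 (SE) on its brighter probe and 0.21 ± 0.16 (SE) on the other. The brighter Pcna probe lay between -0.12 and -0.012 with 1 array left out, the smallest difference without CCH replicate 1. Mki67 and Top2a had no named probe.

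Of 25 tested genes of immature neurons and neurite growth 18 were higher and 7 lower, with a median of 0.08. At an unadjusted p under 0.05 Dclk1, the doublecortin-like kinase gene, was higher and Dpysl3, a neurite growth protein, lower. Dclk1, named after its values were seen, was at 0.28 ± 0.11 (SE, limma adjusted p = 0.272) and at 0.28 ± 0.10 (SE) on its other probe. Dpysl3 was between -1.72 and -1.53 on the control arrays and between -2.24 and -1.88 on the CCH arrays, a difference of -0.34 ± 0.11 (SE, limma adjusted p = 0.193). Neurod1, the transcription factor that drives granule neuron maturation, was at 0.32 ± 0.18 (SE, limma adjusted p = 0.439), at 0.19 without CCH replicate 1, 0.20 without control replicate 1 and 0.17 with array weights. Calb2, the calcium buffer calretinin of young granule cells and of interneurons, was at -0.44 ± 0.24 (SE, limma adjusted p = 0.439), Gap43 at 0.10 ± 0.16 (SE) and Stmn1 at 0.06 ± 0.10 (SE) on its brighter probe and -0.0021 on the other. The brighter Stmn1 probe was at -0.0070 without control replicate 1, and Gap43 lay between 0.024 (without control replicate 1) and 0.25 (without CCH replicate 1). Of 4 tested genes of mature granule neurons 3 were higher and 1 lower, with a median of 0.11. Their nuclear factor Prox1 was at 0.12 ± 0.10 (SE, -0.031 with normexp background correction) and the calcium buffer Calb1 at 0.18 ± 0.11 (SE), with Prox1 at 0.077 without CCH replicate 1 and Calb1 at 0.10 without CCH replicate 4.

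**Figure D4:**
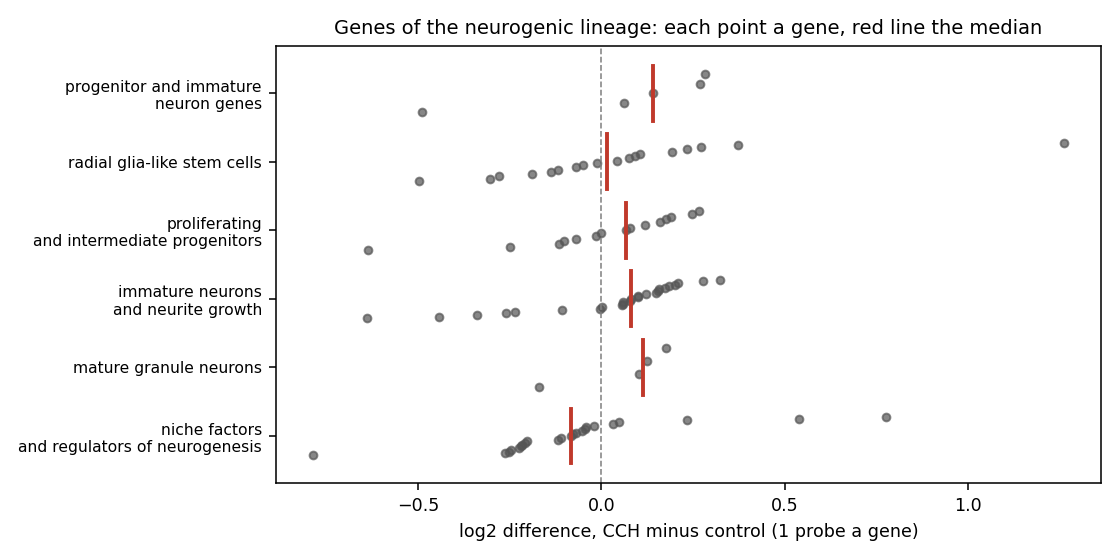
Log2 difference between CCH and control for every tested gene of the member list and of 5 lineage lists (points, 1 probe a gene), with the median of each list as a red line and 0 dashed. List medians lie between -0.08 and 0.14, and no point passed the adjusted threshold.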

How the data were processed

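Hippocampal RNA of 8 rats was hybridised to 8 arrays. The authors extracted the spots with Agilent Feature Extraction 9.5, per the submitters' processing notes, and the deposited processed intensity is linear, background-subtracted and detrended within the array, per the file headers, with no scaling between arrays. The deposited value table equals it after rounding (largest relative difference 0.00498). Groups came from the sample titles. RefSeq accessions were matched to symbols in a GRCr8 gene table, naming 15184 of 41012 probes. The array grid names the older build rn4, so probe positions are not given.

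Marked spots were left out, log2 intensity was scaled to the 75th percentile of non-control spots, and spots of a probe were averaged. Probes well above background on at least 4 of 8 arrays, with at least 3 values per group, were tested in limma 3.58.1 (R 4.3.3; lmFit, eBayes, two-sided tests); p-values were adjusted by Benjamini-Hochberg across 31612 probes. The fit was tested on simulated data. Nothing in the labels names litters or cages, so p-values measure the spread between these samples. The normexp alternative (offset 50) used median spot signals. Slide as a block was not run, because each slide held 1 group.

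The members, lists and tests were chosen with earlier results of these data known. Text names every member probe, called list genes and 24 set genes, of which 19 were tested and 1 is not reported here; Sox9, Mki67, Top2a, Sox4 and Rbfox3 had no named probe.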

Additional observations from a re-analysis of the deposited data

Results flagged for a closer look

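Among 50 groups of 4 arrays examined (6 member probes and 19 other genes of the lineage, in each diet), 4 had an array far from the other 3 by Dixon's ratio, and chance alone flags about 1 in 20. No member probe was among them. Gap43, a growth cone protein, was at 4.38 on control replicate 1 and between 4.68 and 4.70 on the other controls. The growth factor Fgf2 was at -0.80 on CCH replicate 1 and between -0.50 and -0.47 on the other CCH arrays. Dpysl3 was at -1.53 on control replicate 2 and between -1.72 and -1.70 on the other controls. Gfap was at 1.12 on CCH replicate 4 and between 0.71 and 0.78 on the other CCH arrays.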

How the results depend on the processing

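The count of called member probes was 0 under all 18 alternatives. The count over the whole array moved from 55 (24 higher and 31 lower) to 246 with normexp background correction (69 higher and 177 lower), 29 with no detection filter, 209 with detection on all 8 arrays, 220 with trend and robust settings and 1361 with array weights (750 higher and 611 lower). With 1 array left out it ran from 0 to 733, the highest without CCH replicate 1 and 0 or 1 otherwise. Called genes of the lists reached 1 of 15 dividing progenitor, 1 of 12 astrocyte and 3 of 23 niche genes with array weights, 2 of 8 oligodendrocyte precursor genes with normexp or array weights, and 1 of 7 neocortex genes with array weights or without CCH replicate 1. Both Nes probes, Sox2 and Tubb3 kept their direction under all 18. Sox11 turned to -0.044 with normexp. With 1 array left out Dcx ran from -0.060 to 0.16, Vim from -0.62 to 0.16, Pax6 from -0.023 to 0.10, Stmn1 from -0.0070 to 0.10 and Hes5 from -0.054 to 0.27. Pax6 was at -0.030 with array weights and Prox1 at -0.031 with normexp. The cause was not tested. Replicate numbers equal the position on the slide and are not stated to pair rats. The deviations of same-numbered arrays correlated at 0.15, 0.08, -0.01 and 0.25 for numbers 1 to 4, and 2 of 4 controls and 1 of 4 CCH arrays correlated best with their own number. With the replicate block 0 probes were called over the array, and the Nes probes, Sox2, Sox11, Tubb3 and Dcx stayed uncalled. Dim signal limits Sox11, and 4 arrays a group limit every interval.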

Other observations

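Signals that regulate neurogenesis from the surrounding niche, a list of growth factors, morphogens and their receptors, were lower in CCH for 18 of 23 tested genes and higher for 5, with a median of -0.08 against 0.03 over all tested probes, and 0 were called by limma. Of the list 1 gene was called with normexp, 1 with trend and robust settings and 3 with array weights. At an unadjusted p under 0.05 the list held 2 higher genes, Bmp4 and the Notch ligand gene Dll1, and 1 lower gene, Reln, all 3 named after their values were seen. Over all tested probes 15.4% passed that limit, 8.79% higher and 6.59% lower, so the list's count of 3 in 23 does not stand out. Bmp4, a morphogen that holds stem cells quiescent and is also on the oligodendrocyte precursor list, was at 0.78 ± 0.14 (SE, limma adjusted p = 0.0634), and at 0.58 with an adjusted p of 0.0472 with normexp. The 2 probes of Reln, the matrix protein reelin, disagreed, at -0.79 ± 0.16 and 0.49 ± 0.35 (SE), so no direction can be given for it. Dll1, which signals to stem cells through Notch receptors, was at 0.54 ± 0.16 (SE, limma adjusted p = 0.175), and at 0.30 with normexp (adjusted p = 0.214). Fgf2, a mitogen of neural progenitors, had all 4 CCH arrays below all 4 controls, as did 4.69% of all tested probes. Its means were -0.31 ± 0.12 (SD, n = 4) for controls against -0.56 ± 0.16 (SD, n = 4) for CCH (difference -0.25 ± 0.11, SE, limma adjusted p = 0.325, and -0.16 with array weights). Members of the sonic hedgehog pathway were at -0.21 (Smo) and at -0.23 and 0.21 on the 2 probes of Ptch1, both genes also named after their values were seen. The second Ptch1 probe turned to -0.23 with normexp, where the first was at -0.21.

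Markers of the striatum and subventricular zone, the other neurogenic region of the brain, were higher for 5 and lower for 5 of 10 tested genes, with a median difference of -0.05. Markers of neocortex and subiculum were higher for 4 and lower for 3 of 7, with a median of 0.20. The spread of both lists overlapped between the groups, with mean levels of -0.17 to 0.14 and -0.41 to 0.12 in the controls and of -0.25 to 0.14 and 0.02 to 0.22 in CCH.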
